A study of Mus musculus with 15 samples.

Results

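PreSertoli cells of the E15.5 mouse embryo (E, embryonic day) had 12917 open chromatin regions that no other DNase-seq list of the series held. They were found by joining touching or overlapping peaks of all 8 lists, which gave 237612 regions, and by keeping those with an E15.5 preSertoli peak and no peak elsewhere. These E15.5-only regions made up 5.44% of all regions and 16.8% of the 76918 regions open at E15.5. Another 71.8% of the E15.5 regions were open at E13.5 too, and 11.5% lacked an E13.5 peak but were open in another cell type. The set was chosen by peak calls in these lists, so its strength and its absence from other lists are descriptions. The H3K27ac domains, measured 2 days earlier in the same cell type, had no part in the choice.

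In the fetal testis, preSertoli cells enclose the germ cells in cords and direct male development. Nucleases cut DNA where nucleosomes are displaced, so DNase-seq peaks mark promoters, enhancers and other sites bound by proteins. Acetylation of lysine 27 on histone H3 (H3K27ac) lies on nucleosomes beside active promoters and enhancers, over stretches wider than the open site itself. Acetylation can be present at a stretch of chromatin at an earlier stage than a given open site within it.

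The E15.5 and E13.5 preSertoli DNase-seq libraries came from sorted testis cells of male Sox9-heterozygous C57BL/6J x CD-1 (F1) embryos whose fathers carried the Sox9-ECFP transgene. The H3K27ac list came from 2 ChIP-seq pools of sorted E13.5 preSertoli cells of the same strain label, each joined from several sorts. The other 6 lists came from C57BL/6J sources, namely ES cells, skin fibroblasts in primary culture and adult brain, heart, kidney and liver. Each DNase list stands for 1 library, so no difference below has a replicate check and none was tested, and stage, library and depth cannot be told apart between E15.5 and E13.5. Wilson 95% intervals cover counting error only, and neighbouring regions are not independent of each other. For preSertoli cells the labels describe digestion by nucleases of the cells themselves, without the DNase I added elsewhere, so cell type and digestion cannot be told apart. A missing peak does not show that chromatin was closed.

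The labelled cell type could be checked in RNA alone, in 3 pools of sorted E15.5 preSertoli cells. All 15 Sertoli markers reached 1 CPM (scaled estimated reads per 1000000), with a list median of 402 CPM. Among them were the hormone gene Amh at 2048 ± 678 CPM and the transcription factor gene Sox9 at 259 ± 36.9 CPM (SD, n = 3). All 5 fetal Leydig markers, for steroid-making cells outside the cords, also reached 1 CPM, from 54.9 to 676 CPM. The 5 germ cell markers stood between 0.329 and 12.3 CPM, and the 4 granulosa markers between 0.0685 and 1.59 CPM. The highest of 4 endothelial markers stood at 15.6 CPM, of 4 macrophage and blood markers at 23.1 CPM and of 4 peritubular and interstitial markers at 28.7 CPM. Acta2, also planned for the peritubular and interstitial list, has no value here. What share of the E15.5-only regions came from other cells in the sort was not tested.

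E15.5-only regions were weak peaks of their own list. The median region stood at the 19.6th percentile of the E15.5 list by the authors' score, where 100 is the strongest peak, with a signal height of 0.0716 in the authors' units. Just 8.89% of them (Wilson interval 8.41 to 9.39) lay in the upper 50% of that list, against 51.7% of all E15.5 regions. Regions found in 1 list alone were also mostly in the lower part of the other lists, with 12.3% of E13.5-only regions in the upper 50% of their list, 16.6% of those of adult heart alone and 31.9% of those of adult liver alone. The weakest decile (10% of the peaks) of the list held 3559 of them, which was 49.0% of its regions. That share was 9.06% in the sixth decile and 0.286% in the ninth. In the strongest decile 0 of 8114 regions were E15.5-only, which allows a share of up to 0.0370% (3 counts of the total) or, by the Wilson interval, 0.0473%. Their median width was 176 bp, against 640 bp for regions open at both stages.

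At the edge of the rule, 210 members had an E13.5 peak 1 to 50 bp away, with a median percentile of 17.3. On the other side, 360 regions of the preSertoli lists alone were kept out by an overlap of 1 to 50 bp with the E13.5 list, with a median percentile of 12.4. Both lay in the lower part of the E15.5 list. E13.5-only regions, the counterpart at the earlier stage, numbered 17174 and had a median percentile of 22.5 in their own list.

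E15.5-only regions were present on every autosome at similar rates. On the 19 autosomes they made up between 14.5% (chromosome 1) and 18.9% (chromosome 5) of the E15.5 regions, with a median of 16.6%. On the X chromosome the share was 11.2%, below that of each autosome. In fixed windows of 100 kb, 3691 regions were alone and 3130 lay in pairs.

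The first comparison asked how often these regions lay in chromatin that was acetylated at E13.5. Of the 12917, 2729 overlapped an H3K27ac domain by at least 1 bp, a share of 21.1% (Wilson interval 20.4 to 21.8). That was above the 16.1% of all merged regions and below the 34.2% of all E15.5 regions. Regions of ES cells alone overlapped these domains in 6.56% of cases and those of adult heart alone in 6.66%. Adult kidney stood at 6.50%, adult liver at 5.86%, skin fibroblasts at 5.67% and adult brain at 4.04%. The share of E15.5-only regions was 3.17 to 5.23 times that of regions found in a single other cell type. E15.5 regions that lacked an E13.5 peak but were open in another cell type stood between, at 16.0%. Regions open at both preSertoli stages reached 40.2%, and those open at both and nowhere else 36.7%.

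**Figure D1:**
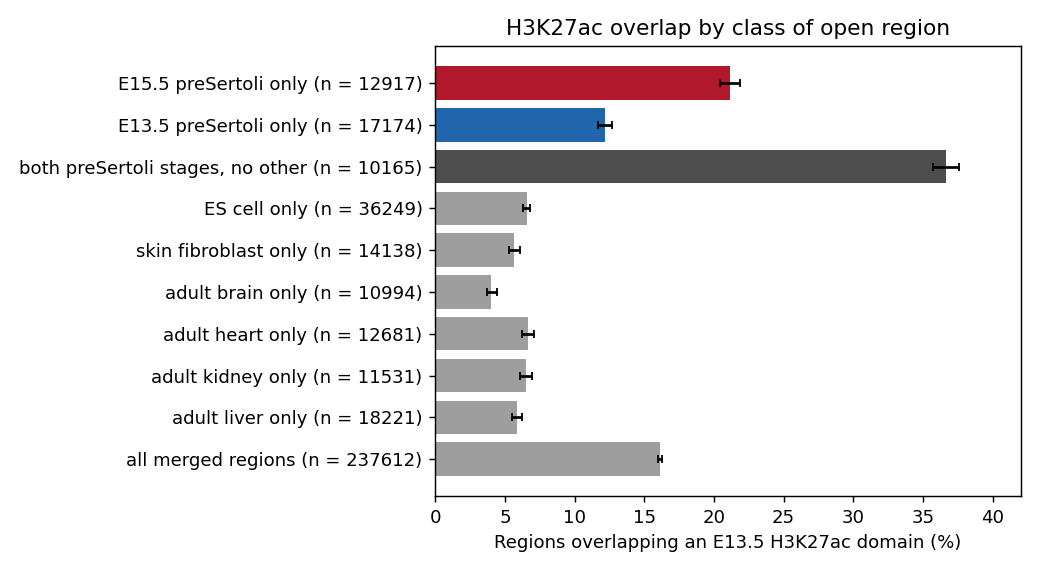
Share of open regions that overlap an E13.5 preSertoli H3K27ac domain (horizontal axis, %), by class of region (rows, with the number of regions); bars are shares and lines Wilson 95% intervals. E15.5-only regions stand at 21.1%, above the E13.5-only regions at 12.2% and all 6 classes found in a single other cell type, and below regions open at both preSertoli stages.

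E15.5-only regions overlapped the domains, which were mapped at E13.5, more often than E13.5-only regions did. The E15.5-only share stood 8.97 percentage points above the E13.5-only share of 12.2% (2088 of 17174, interval 11.7 to 12.7). The order was the same on each of the 19 autosomes. There E15.5-only shares ran from 16.3% on chromosome 5 to 29.3% on chromosome 3 and E13.5-only shares from 9.72% to 15.4%. With an equal number of peaks in every list the shares were 25.7% and 15.9%. With the upper 50% of every list they were 32.7% and 23.3%, in the same order of classes. Both settings drop weak peaks, so regions with a dropped peak in another list enter the sets. The upper 50% setting gave 4910 E15.5-only regions, while 1148 of the 12917 lay in the upper 50% of the E15.5 list. The E15.5 list held 81467 peaks and the E13.5 list 88107.

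Among E15.5-only regions, overlap with H3K27ac was higher in stronger peaks. It was 17.7% in the weakest decile of the E15.5 list, 21.1% in the third, 27.6% in the fifth and 34.7% in the eighth (interval 26.1 to 44.3). In the ninth decile it was 69.6%, over 23 regions and with an interval of 49.1 to 84.4. Regions found in a single other cell type showed no such climb. In adult heart their share was 9.57% in the weakest decile and 2.11% in the eighth, and in ES cells 7.28% and 4.65%.

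At the same peak strength, E15.5-only regions in the weaker 6 deciles overlapped H3K27ac at shares within 3 percentage points of those of regions open at both stages. In the weakest decile the shares were 17.7% and 17.9%, in the third 21.1% and 21.9%, and in the sixth 29.2% and 29.3%. In the seventh decile E15.5-only regions were lower, at 26.3% (interval 21.8 to 31.4) against 33.9% (32.8 to 35.0). Weighted to the deciles of the E15.5-only regions, regions open at both stages came to 21.6%, while E13.5-only regions came to 11.9%. The both-stage regions were wider. When the midpoint of a region had to lie in a domain, E15.5-only regions stood at 20.2% and both-stage regions, weighted in the same way, at 20.7%. Regions open at both stages and in no other cell type stood higher at these strengths, at 27.3%.

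**Figure D2:**
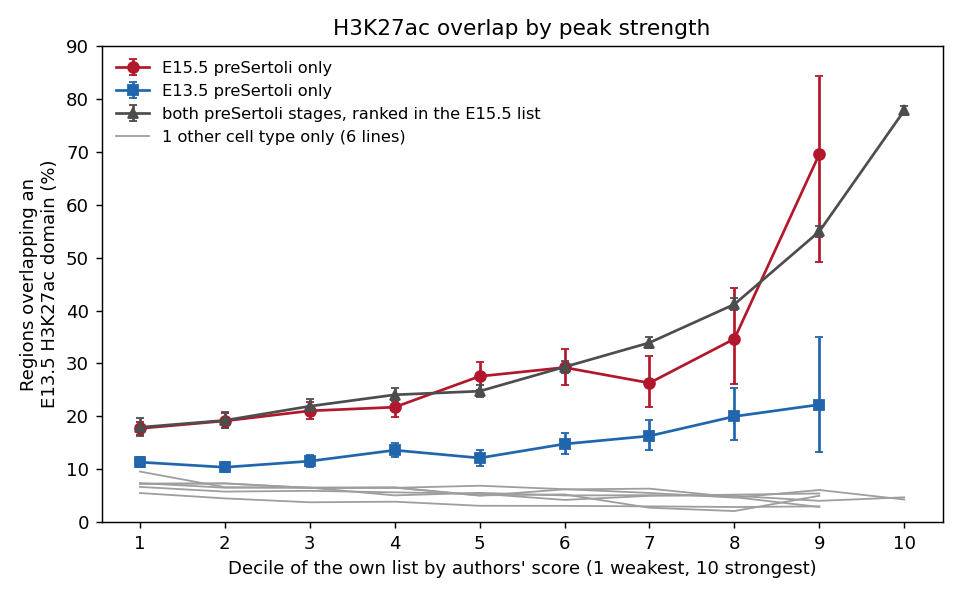
Share of regions overlapping an E13.5 H3K27ac domain (vertical axis, %) by decile of the authors' score in the region's own list (horizontal axis, 1 weakest, 10 strongest), for bins of at least 20 regions; points are shares and bars Wilson 95% intervals. E15.5-only regions run from 17.7% in the weakest decile to 34.7% in the eighth, near the both-stage regions up to the sixth, E13.5-only regions lie lower, and the grey lines of regions in a single other cell type stay below 10%.

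E15.5-only regions lay nearer to E13.5 peaks than regions of a single other cell type did, and about as near as other E15.5 regions without an E13.5 peak. Their median distance to the nearest E13.5 peak was 2263 bp, and 32.3% had one within 1 kb. E15.5 regions that lacked an E13.5 peak but were open in another cell type had a median of 2448 bp, with 30.0% within 1 kb. E13.5-only regions were farther from the nearest E15.5 peak, with a median of 6166 bp and 19.8% within 1 kb. The 6 classes of regions in a single other cell type had medians from 5220 bp (adult heart) to 6720 bp (adult liver) to an E13.5 peak. The median distance to the nearest region open at both stages was 3189 bp for E15.5-only regions and 8366 bp for E13.5-only regions.

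E15.5-only regions nearer to an E13.5 peak overlapped H3K27ac more often. Within 500 bp of an E13.5 peak, 37.4% of E15.5-only regions (978 of 2614) overlapped a domain, against 24.9% of regions in a single other cell type. Farther out the classes parted more. Between 5000 and 20000 bp the shares were 13.7% and 2.35%, and beyond 20000 bp they were 15.3% (161 of 1050, interval 13.3 to 17.6) and 1.44% (interval 1.29 to 1.61). E13.5-only regions more than 20000 bp from any E15.5 peak overlapped in 6.48% of cases. Weighted to the distances of the E15.5-only regions, E13.5-only regions came to 15.2% and regions in a single other cell type to 9.88%.

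**Figure D3:**
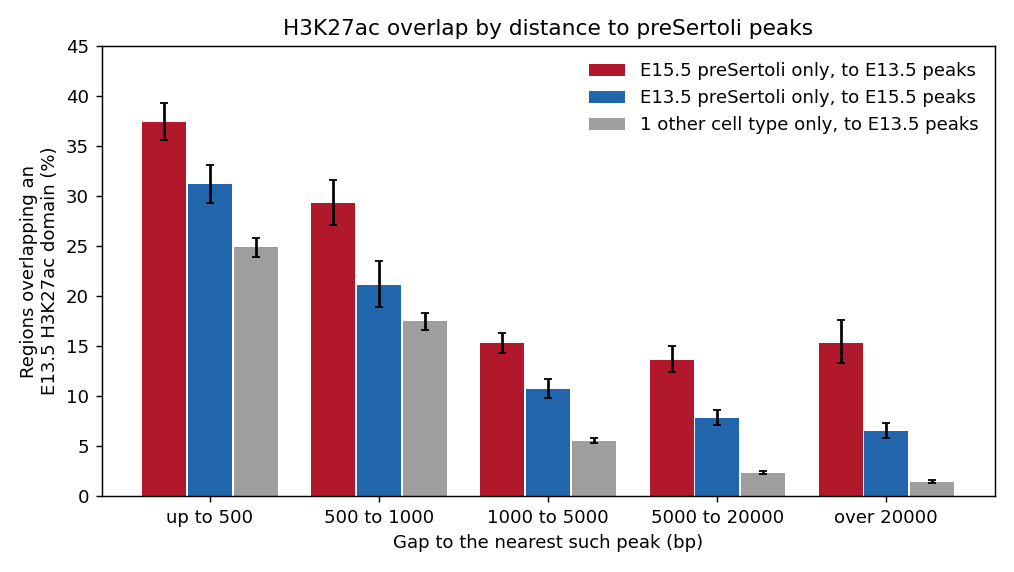
Share of regions overlapping an E13.5 H3K27ac domain (vertical axis, %) by the gap in bp to the nearest E13.5 peak, or to the nearest E15.5 peak for E13.5-only regions (horizontal axis); bars are shares and lines Wilson 95% intervals. For E15.5-only regions the share stays near 15% from 1000 bp outwards, while regions of a single other cell type drop to 1.44%.

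The second comparison set the strength of the 2729 regions inside domains against that of the 10188 outside. Those inside were the stronger by a small margin, with wide overlap. Inside domains the median percentile was 23.5 (quartiles 10.8 and 39.1) and the median signal height 0.0744. Outside they were 18.8 (quartiles 8.48 and 32.7) and 0.0711. The upper 50% of the E15.5 list held 12.5% of the regions inside (341 regions, interval 11.3 to 13.8) and 7.92% of those outside (807 regions, interval 7.41 to 8.46), against 51.7% of all E15.5 regions. In 55.9% of all pairs made of 1 region from each side, the region inside was the stronger, with ties split evenly between the sides. On 17 of 19 autosomes the median percentile was higher inside, the exceptions being chromosomes 3 and 18.

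Wider regions were stronger, and regions inside domains were wider, with medians of 195 bp inside and 172 bp outside. Among regions up to 150 bp wide the median percentile was 7.49 inside and 7.29 outside. Above 250 and up to 400 bp it was 43.8 and 40.9, and above 400 bp 51.3 and 50.0. At similar width the margin was smaller than over all regions.

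A like margin was seen at E13.5. For E13.5-only regions the upper 50% of their list held 16.3% inside and 11.8% outside. In each of the 6 other cell types the order was the opposite, for example 9.94% inside and 17.1% outside in adult heart, and 24.6% and 28.9% in ES cells. The both-stage regions had the widest gap, with 81.9% inside and 57.8% outside.

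The third comparison asked whether a domain with an E15.5-only region was already open elsewhere at E13.5. E15.5-only regions lay in 2439 of the 28586 domains. Of these 2439, 2188 held a single one, 220 held 2, and 1 domain held 6. An E13.5 peak was present in 1656 of them, a share of 67.9% (interval 66.0 to 69.7), against 70.3% of domains without an E15.5-only region and 70.1% of all domains. Counted by region, 846 of the 2729 regions (31.0%) lay in a domain without an E13.5 peak and 1883 (69.0%) in a domain with one.

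Domains with an E15.5-only region were wider, with medians of 3000 bp with such a region and 2000 bp without. E13.5 peaks were present more often in wide domains. At like width, up to 8000 bp, they held E13.5 peaks less often. Between 1000 and 2000 bp, 39.4% of domains with an E15.5-only region held an E13.5 peak (interval 35.0 to 43.9), against 65.2% of domains without. Between 2000 and 4000 bp the shares were 68.2% and 78.9%, and above 8000 bp 98.8% and 98.1%. Domains with a region of a single other cell type, which also hold a region that lacks an E13.5 peak by its definition, stood at 52.3% between 1000 and 2000 bp and at 76.2% between 2000 and 4000 bp. Up to 1000 bp the order of those classes turned, at 23.7% with an E15.5-only region and 21.2% with one of a single other cell type, within their intervals. The mirrored shares at E13.5 were lower up to 8000 bp. Of domains with an E13.5-only region, 56.4% held an E15.5 peak, with 34.4% between 1000 and 2000 bp and 56.7% between 2000 and 4000 bp. The share of all domains that held an E15.5 peak is not given here, and the E15.5 list is shorter than the E13.5 list. Whether the lower mirrored shares go beyond that difference in list length was not tested.

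**Figure D4:**
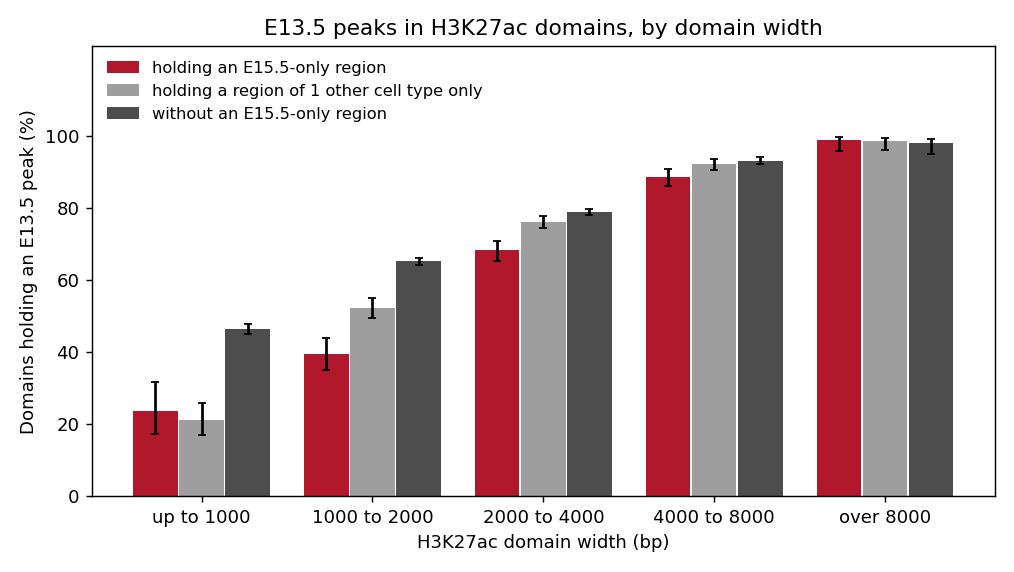
Share of E13.5 H3K27ac domains that hold an E13.5 DNase peak (vertical axis, %) by domain width in bp (horizontal axis), for domains that hold an E15.5-only region, domains that hold a region of a single other cell type, and domains without an E15.5-only region; bars are shares and lines Wilson 95% intervals. Between 1000 and 2000 bp the shares are 39.4%, 52.3% and 65.2%, and above 8000 bp all 3 are near 98%.

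Most domains with both an E15.5-only region and an E13.5 peak held a region open at both stages. This was so in 1521 of the 1656 domains (91.8%), and in the other 135 (8.15%) no such region was present. The same share over all domains with an E13.5 peak is not given here. Inside all domains lay 22169 regions open at both stages and 2088 E13.5-only regions, so a high share is not particular to the 1656. The best E13.5 peak of the 1656 domains stood at a median percentile of 85.2 in the E13.5 list, against 83.5 in domains without an E15.5-only region. This order turned with domain width. Between 1000 and 2000 bp the medians were 67.2 with an E15.5-only region and 82.6 without, between 2000 and 4000 bp 83.4 and 85.1, between 4000 and 8000 bp 88.4 and 85.3, and above 8000 bp 88.0 and 87.0. An E13.5-only region shared the domain in 251 of 2439 cases (10.3%, interval 9.15 to 11.6), against 6.50% of the narrower domains without an E15.5-only region and 6.83% of all domains. At like width the shares were closer from 1000 to 8000 bp, but not in the narrowest and widest domains. They were 8.33% with and 7.55% without an E15.5-only region between 2000 and 4000 bp, and 13.2% and 12.9% between 4000 and 8000 bp. Up to 1000 bp they were 7.63% and 3.43%, with separate intervals. Above 8000 bp they were 25.6% and 19.4%, with overlapping intervals.

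Of the 783 domains with an E15.5-only region and no E13.5 peak, 752 held no other E15.5 region and 595 (76.0%) no other DNase region of any list. A domain without an E13.5 peak can hold a both-stage region only by a part without that peak, so these counts are partly fixed by the choice. Among all 8555 domains without an E13.5 peak, 1089 (12.7%) held any E15.5 peak. The share of the 8555 with no DNase region of any list is not given here. The 76.0% is therefore not shown to be particular to the 783 domains. The 783 domains were 9.15% of the 8555 that had no E13.5 peak. Of domains with an E13.5 peak, a similar 8.27% (1656 of 20031) held an E15.5-only region. In those 8555 domains, regions of ES cells alone were present in 6.72%, of adult liver alone in 3.17% and of adult brain alone in 1.58%. The ES list is the longest, with 96536 peaks. Per Mb of domain, E15.5-only regions numbered 55.6 where the domain had no E13.5 peak and 33.7 where it had one. This ratio of 1.65 had a close counterpart in adult brain (1.64), and the other 5 cell types ran from 1.12 to 1.49.

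E15.5-only regions in domains without an E13.5 peak were stronger than those in domains with one. The median percentile was 28.2 (quartiles 13.6 and 44.4) without an E13.5 peak and 21.3 (quartiles 9.64 and 35.7) with one. Median signal heights were 0.0783 and 0.0728. Median region widths also differed, at 210 and 188 bp, and these 2 groups were not compared at like region width. The upper 50% of the E15.5 list held 17.7% (150 of 846, interval 15.3 to 20.4) and 10.1% (191 of 1883, interval 8.86 to 11.6). Over all domain widths, regions outside domains, at 7.92%, were lowest. In domains of 1000 to 8000 bp, regions without an E13.5 peak in the domain again stood above those with one. From 1000 to 4000 bp, those with one stood below the regions outside domains. Between 1000 and 2000 bp the shares were 17.2% and 7.07%, between 2000 and 4000 bp 17.1% and 7.15%, and between 4000 and 8000 bp 22.2% and 13.54%. Up to 1000 bp the shares of 17.5% and 15.6% rested on 103 and 32 regions, with overlapping intervals.

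**Figure D5:**
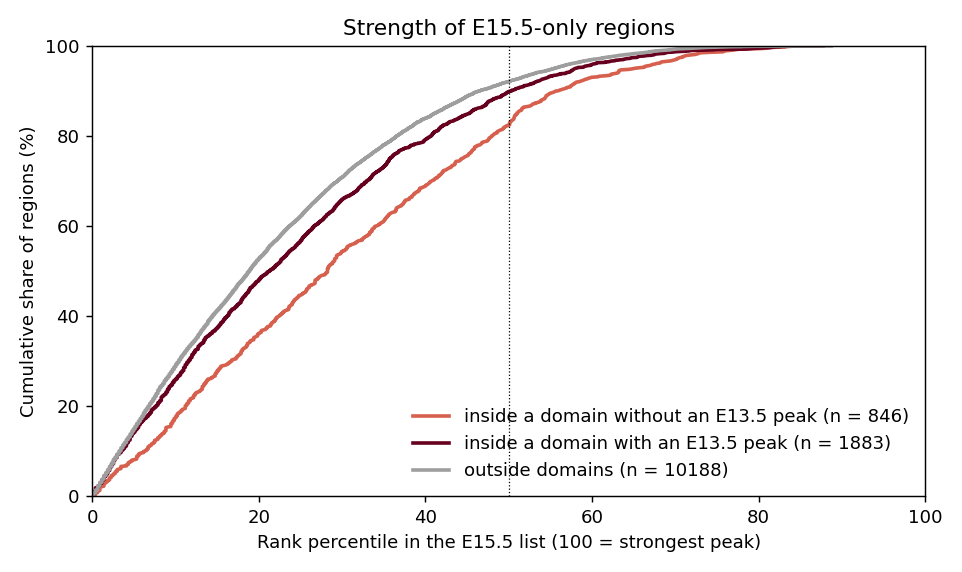
Cumulative share of E15.5-only regions (vertical axis, %) by rank percentile in the E15.5 list (horizontal axis, 100 = strongest peak), for the 846 regions in domains without an E13.5 peak, the 1883 in domains with one and the 10188 outside domains; the dotted line marks the middle of the list. Few regions pass the middle, and those in domains without an E13.5 peak do so most often, at 17.7%.

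The place of E15.5-only regions within a domain was like that of E13.5-only regions. On a scale of 0 at the domain's centre and 1 at its edge, the median midpoint of E15.5-only regions was at 0.48 (quartiles 0.240 and 0.735), and that of E13.5-only regions at 0.465 (quartiles 0.236 and 0.725). Regions open at both stages lay nearer the centre, at 0.309, and regions of a single other cell type nearer the edge, at 0.645. Inside domains, both-stage regions had a median width of 971 bp, in domains of 2600 bp. E15.5-only regions had 195 bp, in domains of 3200 bp. Midpoints were not compared at like width. Within the set, regions in domains without an E13.5 peak lay at 0.348 and those in domains with one at 0.548. The E15.5-only regions of domains without an E13.5 peak lay closer to the place of both-stage regions. By the rule an E15.5-only region cannot overlap a both-stage region, so that place is barred to it where one is present. Counted by region, the median domain width was 2200 bp without and 4000 bp with an E13.5 peak. Of the E15.5-only regions outside domains, 6.78% lay within 1 kb of a domain, and the median distance was 14080 bp.

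The strongest E15.5-only region in a domain without an E13.5 peak lay on chromosome 5 from 77701275 to 77701751 (mm9). It had a score of 923 on the authors' scale, which is capped at 1000, a signal height of 0.263 and place 12616 in the E15.5 list, and it lay in a domain of 3400 bp. The nearest E13.5 peak was 1832 bp away, outside that domain. The second, on chromosome 8 (117633089 to 117633637, score 896), lay in a domain of 1400 bp that held 2 E15.5-only regions, and its nearest E13.5 peak was 13356 bp away. On chromosome 11 a region from 76442061 to 76442535 scored 892, and another from 110464631 to 110465198 scored 855. The region from 110464631 was 30530 bp from any E13.5 peak, the longest distance of these 5. The fifth lay on chromosome 7 (105298957 to 105299445, score 852) across the edge of a domain of 1000 bp.

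Among domains with an E13.5 peak, the strongest E15.5-only region lay on chromosome 7 from 74514957 to 74515503. It had the capped score of 1000, a signal height of 0.303 and place 9970, across the edge of a domain of 5000 bp with 2 E13.5 peaks, and the nearest E13.5 peak was 1659 bp away. A region on chromosome 14 (87818275 to 87818745, score 919) lay 1107 bp from the nearest E13.5 peak, in a domain with 1. One on chromosome 6 (28428950 to 28429438, score 882) had an E13.5 peak 89 bp away, the shortest distance of this group. Regions on chromosome 17 (5943205 to 5943772, score 881) and chromosome 2 (165662351 to 165663222, score 870) completed the list. The chromosome 2 domain spanned 9000 bp and held 3 E13.5 peaks and 2 E15.5-only regions.

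Outside domains, the strongest was on chromosome 4 from 136744268 to 136744731, with a score of 1000, a signal height of 0.317 and place 9182, the best of the whole set. The nearest domain was 60069 bp away and the nearest E13.5 peak 3215 bp. A region on chromosome 8 (3533520 to 3534171) also reached the cap, at place 9774, and lay 14519 bp from a domain. The next were on chromosome 4 (120893991 to 120894543, score 950), chromosome 7 (105225608 to 105226392, score 907) and chromosome 1 (166396136 to 166396585, score 876), at 4535 to 5590 bp from a domain. In all, 3 of the 12917 regions reached the cap, 1 inside a domain and 2 outside. The widest inside measured 1144 bp (chromosome 15, 99422934 to 99424077) and the widest outside 2126 bp (chromosome 15, 75540016 to 75542141).

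The domain with most E15.5-only regions was 17600 bp wide, on chromosome 5 from 140267001 to 140284600. It held 6 of them beside 7 E13.5 peaks and 4 both-stage regions, and the best of the 6 scored 533. The next, a domain of 16000 bp on chromosome 8 (128432201 to 128448200), held 4 beside 5 E13.5 peaks, with a best score of 695. A domain of 7600 bp on chromosome 4 (138842201 to 138849800) also held 4, beside 4 E13.5 peaks, with a best score of 602. In all, 5 domains held 4 E15.5-only regions, and those with the highest best score were taken. These 3 domains all held E13.5 peaks, and the median score of the E15.5 list is 581.

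The densest windows differed in how many of their E15.5-only regions lay in a domain. The window of 100 kb with most E15.5-only regions, on chromosome 11 (117900001 to 118000000), held 17 among 32 E15.5 regions, and 0 of the 17 lay in a domain. On chromosome 15 (75500001 to 75600000) 14 of 27 E15.5 regions were E15.5-only, with 1 in a domain, and that window holds the widest region of the set. On chromosome 7 (105200001 to 105300000) 13 of 31 were E15.5-only, with 3 in a domain (23.1%), against 21.1% of the whole set. Strong regions of both kinds named above lie in this window.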

How the data were processed

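The submitters' processing notes name BWA (0.6.1-r104), SAMtools and bedtools for DNase-seq, and CASAVA (1.8.2), Bowtie and SICER for ChIP-seq, with build mm9. For the DNase lists, neither caller nor threshold is given in the sources used here. The DNase lists as deposited carry no header. From the values, their columns were read as the authors' score (capped at 1000), the authors' signal height and the authors' −log10 p-value (at least 1.3). Read depth behind the lists is unknown. The deposited H3K27ac domains carry no value, and whether the 2 ChIP libraries were pooled is not stated. Per the file headers the deposited RNA-seq values are square roots, RSEM 1.2.0 is named in the processing notes, and a scaling per library was read from the values; squared and scaled to 1000000 they gave CPM, with the highest row kept for a symbol.

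Peaks were ranked within a list by score, with ties ordered by signal height, and a region took its strongest peak. Domain ends were read as the last base of windows of 200 bp. Overlap meant at least 1 bp, and coordinates are printed counting from 1. Python 3.11.15 with NumPy 2.4.6, pandas 2.3.3 and SciPy 1.17.1 was used, and the interval functions were tested on simulated data. Single regions were named by rank: the 5 strongest inside domains without an E13.5 peak, inside domains with one and outside, the widest inside and outside, and the 3 richest domains and windows. The alternatives tried are given in the closing section. Members, lists and rules were chosen with earlier results of these data known. Gene positions and sequence of build mm9 were not used here.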

Additional observations from a re-analysis of the deposited data

How the results depend on the processing

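In all 12 alternatives that gave both values, E15.5-only regions inside domains lay in the upper 50% of the E15.5 list more often than those outside. Allowing peaks in the 6 other cell types gave 21726 regions, with 19.1% in a domain, 14.7% inside and 10.8% outside in the upper 50%, and 70.2% of domains with an E13.5 peak. With equal numbers of peaks there were 8486 regions, at 25.7%, 31.5%, 23.7% and 52.8% for the same measures. The upper 50% of every list gave 4910 regions, 32.7% in a domain and 42.5% of domains with an E13.5 peak. Weak peaks are removed in both by construction, and regions with a removed peak in another list enter both sets. Joining peaks up to 100 bp apart gave 20.3% in a domain and 64.2% of domains with an E13.5 peak. The share in a domain was 20.2% by midpoint, 19.1% for regions wholly inside and 26.5% with domains extended by 1000 bp, where 73.2% held an E13.5 peak. Leaving out regions within 500 bp of an E13.5 peak, chosen after the data were seen, gave 17.0% in a domain, 15.02% inside and 8.54% outside in the upper 50%, and 51.2% of domains with an E13.5 peak. The other 31 values stayed within the interval, or for counts within 1.5 times, of the reported ones. No paired analysis was possible because each DNase group has 1 library and the ChIP libraries share 1 list. Unknown read depth limits what a missing peak can show.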
